A study of Mus musculus with 12 samples.

Results

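The 9 genes described here encode MYC family proteins, their partner MAX and the repressors that compete with them: Myc, Mycn, Max, Mxd1, Mxd3, Mxd4, Mxi1, Mnt and Mga. They were taken by name as regulators of ribosome synthesis and are 9 of the 19938 genes that could be named on the arrays. The choice made no use of their measured values, but earlier results of these data were known when it was made. Each was measured by 1 probe set, and none of the 9 probe sets was shared with another gene. The 12 Affymetrix arrays profiled RNA of NIH3T3 cells, a mouse fibroblast line that divides without limit. The groups were an siRNA against UBF (sirUBF oligo 1), an independent siRNA against UBF (sirUBF oligo 2), an siRNA named for EGFP (sirEGFP), and Mock, which received the Dharmafect 2 reagent with no siRNA, with 3 arrays each. The siRNAs were used at 40 nM, and total RNA was taken 48 h after transfection. All groups shared the reagent, the cell line and growth in serum, and these cells grow continuously in culture, which limits them as a model of resting tissue. The series' design text calls the 3 arrays of a group biological replicates, and the p-values below measure the spread between them.

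MYC and MYCN are basic helix-loop-helix leucine zipper proteins that bind DNA as dimers with MAX, at E-boxes of the letters CACGTG, and raise transcription of many growth genes. MXD1, MXD3, MXD4, MXI1 and MNT also pair with MAX at E-boxes, where they recruit SIN3 and histone deacetylases and oppose MYC. MGA is a very large protein with both a T-box and a MAX-binding domain, and it belongs to the repressive Polycomb complex PRC1.6. MYC promotes ribosomal RNA synthesis and the production of ribosome assembly factors. UBF, encoded by Ubtf, is the nucleolar factor that keeps ribosomal genes open to RNA polymerase I (Pol I), and Ubtf is itself known as a gene that MYC activates.

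The E-box can also lie in the promoters of the network's own genes, so the promoter windows of the members were searched for CACGTG, a palindrome that reads the same on both strands. Windows came from RefSeq (GRCm38.p6) and ran from 250 bases before to 50 bases after a start given in that table. Of 8 members with a window, 3 held the motif (37.5%). It was found in 2349 of 32851 windows overall (7.15%) and in 1481 of 15562 measured genes with a window (9.52%). The 3 matches are shown with 12 bases on either side, written 5′ to 3′ on the gene's strand, with the E-box in capitals, because they are the letters that MYC, MXD and MNT dimers with MAX can read.
Max, chr12:76962234-76962263, minus strand: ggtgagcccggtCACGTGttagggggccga
Mxd4, chr5:34187912-34187941, minus strand: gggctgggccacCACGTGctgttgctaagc
Mnt, chr11:74830789-74830818, plus strand: ccccacccaagcCACGTGtgcgcgcgcggt
Counted from the start on which each window is set, the motif's first base lay 3 bases before it in Max, 219 in Mxd4 and 123 in Mnt. For Max and Mnt that start lies inside the annotated span of the gene, and the Max motif itself lies within the span. The windows of Mycn, Mxd1, Mxd3, Mxi1 and Mga did not hold these letters, and Myc was not searched. A match describes the sequence and says nothing about binding in these cells.

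Every value below is a log2 level or a difference of log2 levels, and the medians of the arrays ran from 5.38 to 5.54. Ubtf reached at most 7.998 with either siRNA against UBF and at least 8.04 in either control, a change of -0.67 ± 0.12 (SE) with a limma adjusted p of 0.0041. Against sirEGFP alone, the change of -0.58 had an adjusted p of 0.0526 and did not pass. The median level of 11 fibroblast markers was 8.99. For 5 macrophage, 5 epithelial, 5 endothelial, 5 skeletal muscle and 5 adipocyte markers the medians were 4.27 to 4.97. Single fibroblast markers averaged between 3.16 and 12.83, the lowest lying below every marker of the other lists. The highest marker of the other lists averaged 6.64. Against sirEGFP, the macrophage marker Csf1r rose with oligo 1 (0.83), and the fibroblast markers Pdgfra (0.91) and Pdgfrb (1.75) and the adipocyte marker Fabp4 (1.65) rose with oligo 2, while the other markers did not pass with either oligo. Their part in the results below was not tested. Arrays of 1 group correlated at 0.980 to 0.994 and arrays of different groups at 0.975 to 0.994, so the groups did not separate by overall correlation.

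No member passed the test when the siRNAs against UBF were compared with sirEGFP. With both oligos against sirEGFP, 0 of the 9 members passed an adjusted p of 0.05, where 1.93% of all genes did, and 0 of the 9 had an unadjusted p under 0.05, against 13.2% of all genes. The median change over the members was 0.066, against 0.0077 over all genes, and the members' changes ran between -0.11 for Mxd3 and 0.21 for Mxd4. Given each gene's own error, a change had to reach between 0.41 (Mxi1, Mnt) and 0.60 (Max) to pass, so smaller changes were not detectable with these arrays. RNA came from whole cultures, in which fewer cells expressing a gene and less of its RNA per cell cannot be told apart.

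**Figure D1:**
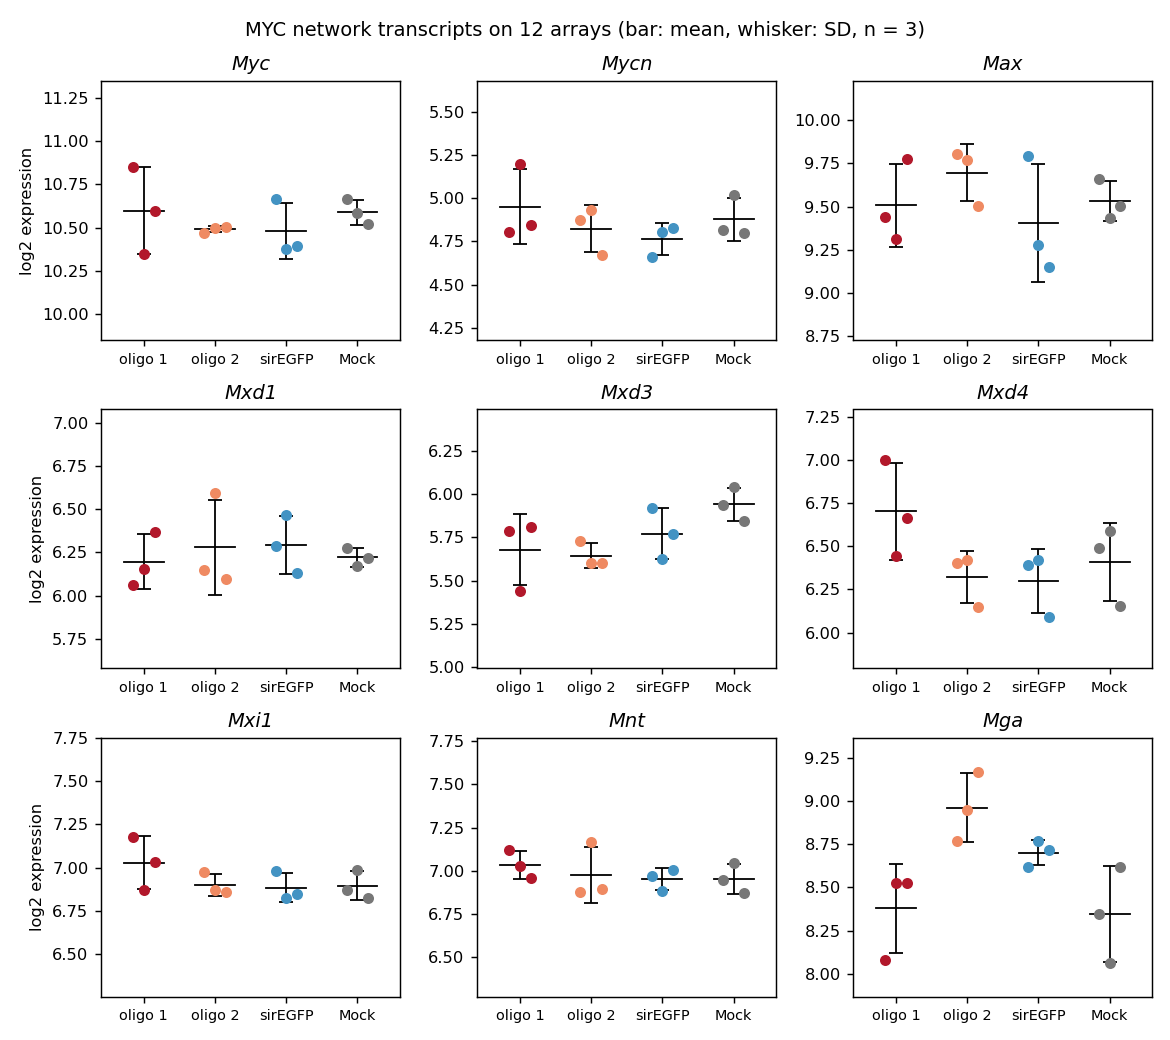
Log2 expression of the 9 network genes on each array (points), with group mean (bar) and SD (whisker, n = 3), for oligo 1, oligo 2, sirEGFP and Mock. Each panel spans the same height in log2 units. In Mga the oligo 1 arrays lie below and the oligo 2 arrays above the sirEGFP arrays.

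Myc, the activator of the network best known for driving growth, did not pass in any of the 8 comparisons. It measured 10.85, 10.35 and 10.59 with oligo 1, 10.47, 10.50 and 10.50 with oligo 2, 10.66, 10.38 and 10.39 with sirEGFP, and 10.66, 10.59 and 10.52 in Mock. The highest and the lowest of the 12 values both came from oligo 1, so the spread within that group covered every other array. The group means were 10.60 ± 0.25 with oligo 1, 10.49 ± 0.019 with oligo 2, 10.48 ± 0.16 with sirEGFP and 10.59 ± 0.072 in Mock (SD, n = 3 each). The change with both oligos against sirEGFP was 0.066 ± 0.12 (SE), and its 95% interval of -0.18 to 0.31 corresponds to 0.882-fold to 1.24-fold (limma adjusted p = 0.898). Against Mock, all 3 oligo 2 arrays lay below all 3 Mock arrays, by a mean of -0.099 (limma adjusted p = 0.848). Such a gap toward lower values was seen in 8.56% of all genes.

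Mycn, the family member of embryonic and neural tissue, gave values of 4.81, 5.20 and 4.84 with oligo 1, 4.87, 4.93 and 4.67 with oligo 2, 4.66, 4.81 and 4.83 with sirEGFP, and 4.81, 5.02 and 4.80 in Mock. All 4 groups overlapped, with 1 oligo 1 array as the highest of the 12. Mycn averaged 4.85, below the lowest array median of 5.38, and 33.2% of genes had a lower mean. Whether its signal rose above background could not be judged. The change with both oligos against sirEGFP was 0.12, with a 95% interval of -0.12 to 0.37 (limma adjusted p = 0.757).

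Max, the shared partner of the MYC, MXD and MNT proteins, measured 9.44, 9.31 and 9.78 with oligo 1, 9.81, 9.77 and 9.51 with oligo 2, 9.79, 9.28 and 9.15 with sirEGFP, and 9.66, 9.43 and 9.51 in Mock. The sirEGFP arrays were the most scattered for this gene, with 1 array near the top of all 12 and another at the bottom. Against sirEGFP, Max differed by 0.10 ± 0.17 with oligo 1 and by 0.29 ± 0.17 with oligo 2 (SE, limma adjusted p = 0.884 and 0.538). With array weights, a fit that counts some arrays more than others, the oligo 1 difference became 0.42 (limma adjusted p = 0.0251). In this comparison the weighted fit called 3814 of all 19938 genes. That fit gave the oligo 1 arrays weights of 0.44, 0.42 and 8.92, so the value there rests mostly on array 3, the highest oligo 1 array for Max.

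The MXD genes encode small repressors, several of which are typically more abundant in cells leaving the cycle. Mxd4 had the largest difference between the oligos among the members other than Mga. It measured 6.997, 6.44 and 6.67 with oligo 1, 6.40, 6.42 and 6.15 with oligo 2, 6.39, 6.42 and 6.09 with sirEGFP, and 6.49, 6.59 and 6.16 in Mock. All 3 oligo 1 arrays lay above all oligo 2 and all sirEGFP arrays, the lowest of them by a narrow margin, but they overlapped the Mock arrays. The difference between oligo 1 and sirEGFP was 0.40 ± 0.16 (SE), 1.32-fold, with an unadjusted p of 0.0246 and a limma adjusted p of 0.268. Among all genes, 2.47% passed in that comparison, 13.4% had an unadjusted p under 0.05, and 8.33% had all oligo 1 arrays above all sirEGFP arrays, so 1 such gene among 9 is close to the background. Oligo 2 against oligo 1 gave -0.38 ± 0.16 (SE, unadjusted p = 0.0330, limma adjusted p = 0.282), where 3.67% of all genes passed, 14.4% had an unadjusted p under 0.05 and 9.14% had all oligo 2 arrays below all oligo 1 arrays. Both differences passed with array weights, at 0.36 (limma adjusted p = 0.0366) and -0.39 (limma adjusted p = 0.0265). That setting called 3814 and 3164 of all 19938 genes in these comparisons, and it gave oligo 1 array 3 a weight of 8.92.

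Mxd3, the MXD gene linked to the S phase of dividing cells, had its lowest means in the knockdown groups. Its values were 5.79, 5.44 and 5.81 with oligo 1, 5.73, 5.60 and 5.60 with oligo 2, 5.92, 5.62 and 5.77 with sirEGFP, and 5.94, 6.04 and 5.85 in Mock. Every knockdown array lay below every Mock array, but the sirEGFP arrays overlapped both. Against Mock the differences were -0.26 with oligo 1 and -0.30 with oligo 2 (limma adjusted p = 0.410 and 0.273), where 2.75% and 4.25% of all genes passed and 6.17% and 8.56% had all arrays below Mock. Over the 6 knockdown and 6 control arrays Mxd3 differed by -0.19 ± 0.091 (SE, unadjusted p = 0.0484, limma adjusted p = 0.298). In that comparison 4.93% of all genes passed and 16.4% had an unadjusted p under 0.05.

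Mxd1, the founding MXD gene, lay between 6.06 and 6.60 over the 12 arrays, and Mxi1, also called MXD2, lay between 6.82 and 7.18. Their changes with both oligos against sirEGFP were -0.056 (95% interval -0.32 to 0.21, limma adjusted p = 0.925) and 0.081 (95% interval -0.13 to 0.29, limma adjusted p = 0.835). In both genes all 4 groups overlapped, and the extreme values were single arrays, the highest Mxd1 value on oligo 2 array 2 and the highest Mxi1 value on oligo 1 array 1. Mnt, the broadly expressed repressor that holds MYC in check in fibroblasts, had the narrowest range of the 9 members, between 6.87 and 7.17. It averaged 7.03 ± 0.083 with oligo 1, 6.98 ± 0.16 with oligo 2, 6.95 ± 0.063 with sirEGFP and 6.95 ± 0.086 in Mock (SD, n = 3 each). Its change with both oligos against sirEGFP was 0.055, with a 95% interval of 0.896-fold to 1.20-fold (limma adjusted p = 0.902).

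**Figure D2:**
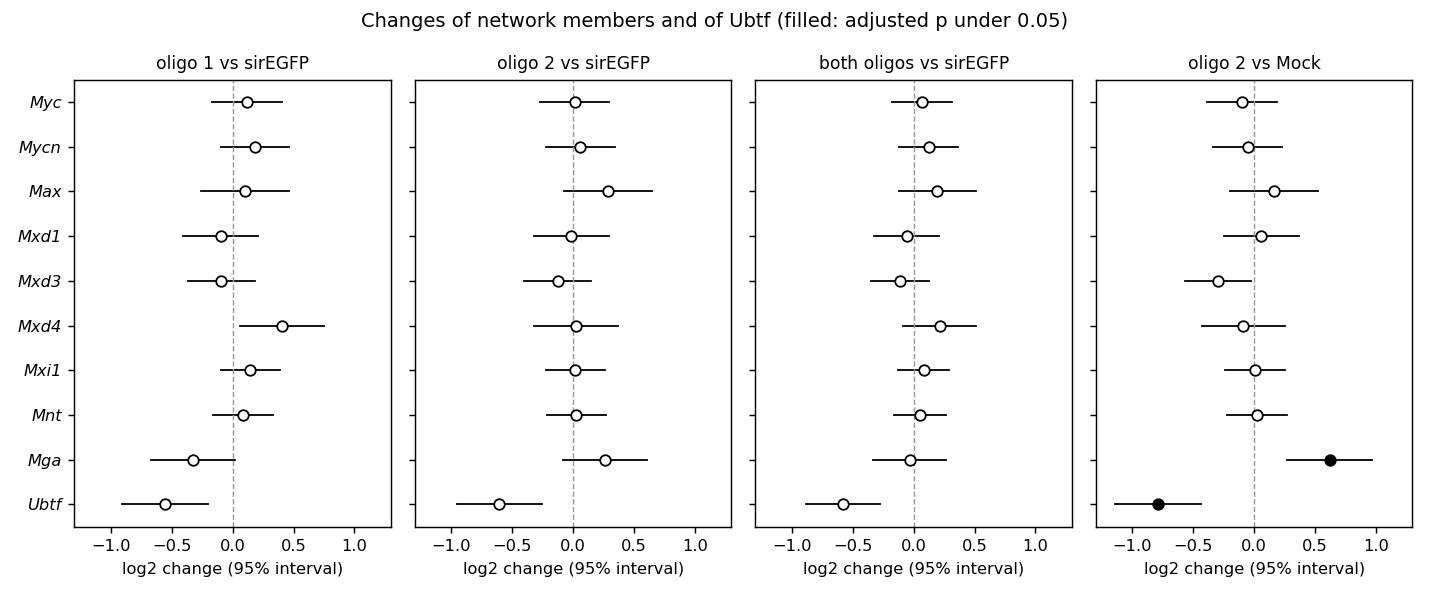
Log2 change (point) and 95% interval (line) of the 9 members and of Ubtf in 4 comparisons, with filled points for a limma adjusted p under 0.05. Among the members the filled point is Mga with oligo 2 against Mock (0.62), and in the comparisons with sirEGFP no member is filled.

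Mga had the widest range of the members over the 12 arrays (1.11), and the 2 oligos stood on opposite sides of the sirEGFP control. It measured 8.08, 8.53 and 8.53 with oligo 1, 8.77, 8.95 and 9.17 with oligo 2, 8.62, 8.77 and 8.72 with sirEGFP, and 8.35, 8.06 and 8.62 in Mock. All oligo 1 arrays lay below all sirEGFP arrays, and all oligo 2 arrays above them, gaps seen in 7.18% and 9.83% of all genes, although the nearest pair, 8.7678 with oligo 2 and 8.7672 with sirEGFP, was almost level. By group mean the order was oligo 2 (8.96 ± 0.20), sirEGFP (8.70 ± 0.075), oligo 1 (8.38 ± 0.26) and Mock (8.34 ± 0.28, SD, n = 3 each), and no neighbouring groups in that order differed at an adjusted p of 0.05. The F-test over the 4 groups gave Mga the smallest p of the members, 0.00504, with an adjusted p of 0.0676.

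Mga rose with oligo 2 against Mock, by 0.62 ± 0.16 (SE, 95% interval 0.27 to 0.97), which is 1.54-fold (limma adjusted p = 0.0444). It was the 1 member called in that comparison, where 2.93% of all genes were called higher and 13.1% had all oligo 2 arrays above all Mock arrays, and the 1 call among the 72 tests of the members. The oligo 2 arrays gave 0.26 ± 0.16 against sirEGFP (limma adjusted p = 0.574), where 2.26% of all genes passed and 12.9% had an unadjusted p under 0.05. The controls also stood apart for this gene, and sirEGFP exceeded Mock by 0.36 (unadjusted p = 0.0434, limma adjusted p = 0.781), with all sirEGFP arrays above all Mock arrays, the nearest pair being almost level at 8.6203 with sirEGFP and 8.6196 in Mock. In that control comparison 0% of all genes passed, 6.25% had an unadjusted p under 0.05 and 6.86% had all sirEGFP arrays above all Mock arrays. Oligo 2 differed from oligo 1 by 0.58 ± 0.16 (SE, unadjusted p = 0.00267, limma adjusted p = 0.0639), in a comparison where 9.19% of all genes had all oligo 2 arrays above all oligo 1 arrays. Oligo 1 differed from sirEGFP by -0.32 (limma adjusted p = 0.419) and from Mock by 0.035 (limma adjusted p = 0.970).

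The call of Mga against Mock was close to the threshold and changed with the arrays and settings used. It passed in 11 of 22 other settings, over which the adjusted p ran from 0.00982 to 0.201 and the change from 0.48 to 0.76. It passed without Mock array 3, sirEGFP array 1 or oligo 1 array 1 or 2. The adjusted p was 0.141 without Mock array 1, 0.201 without Mock array 2, 0.0541, 0.118 and 0.1998 without oligo 2 array 1, 2 or 3, 0.0593 without oligo 1 array 3, and 0.0622 and 0.0577 without sirEGFP array 2 or 3. It was 0.0764 after median centring, 0.0813 after quantile normalization and 0.116 in the fit over every probe set. With oligo 2, Pdgfra also rose against Mock, by 0.90, and Fabp4 by 1.22, while the other 10 fibroblast and 4 adipocyte markers and all macrophage, epithelial, endothelial and skeletal muscle markers did not pass. Whether they bear on the Mga value was not tested.

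Over the 12 arrays, the genes whose levels followed Mga most closely were Phip (Pearson r = 0.970), which encodes a bromodomain protein, Lats1 (0.969), a kinase of the Hippo pathway, and Lcor (0.960), a transcriptional corepressor. Of these 3 genes, 0 passed with both oligos against sirEGFP, where their changes were -0.022, -0.021 and -0.087. For Myc the closest were Eri3 (0.953), an exonuclease family gene, Polg (0.945), the mitochondrial DNA polymerase, and Sbno2 (0.936), with changes of 0.24, 0.056 and 0.071. These correlations mix differences within and between groups, and the arrays share a strong axis within groups that held 41.5% of the variance left after the group means were removed.

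The genes around the network were described by list. Of 4 other genes of the MAX and MLX network, 0 passed with both oligos against sirEGFP. Mlxip, which encodes the glucose sensor MondoA, differed by 0.44 (limma adjusted p = 0.190), Mlx, its partner, by 0.13 (0.705), and Mlxipl, the related ChREBP gene, by -0.054 (0.911). Their targets were represented by 7 genes, of which 1 rose, where 1.21% of all genes were called higher. Txnip, an inhibitor of glucose uptake and thioredoxin, was higher by 1.598 with oligo 1 and by 2.38 with oligo 2 against sirEGFP (limma adjusted p = 0.000956 and 1.35e-05). The other 6 targets did not pass, and the median of the 7 was 0.010, against 0.0077 over all genes. For Pklr and G6pc the changes were 0.14 (0.707) and -0.11 (0.802).

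Other basic helix-loop-helix factors that read CACGTG were measured for 13 of 14 genes, and 0 passed with both oligos against sirEGFP. Their median change was 0.12. Clock, a circadian activator, fell with oligo 1 by 0.73 (limma adjusted p = 0.0108), and with both oligos its change was -0.46 (limma adjusted p = 0.0628). Against Mock the oligo 1 change was -0.35 (0.256), and sirEGFP stood above Mock by 0.38 (0.733). The oligo 1 call was lost without sirEGFP array 2 (0.0695) or oligo 1 array 3 (0.0557). Usf2 and Mitf differed by 0.33 and -0.35 with both oligos (limma adjusted p = 0.200 and 0.215). With oligo 2 against Mock, 2 of the 13 were called higher, where 2.93% of all genes were. They were, named after their values were seen, Bhlhe41 and Hif1a, which lost the call in 1 and 8 of 12 fits without 1 array. Clock was called higher with oligo 2 than with oligo 1, where 3.67% of all genes passed, a call lost in 11 of 12 such fits.

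Among 15 genes for MYC coactivators and its partner Miz-1, 1 fell with both oligos against sirEGFP, where 0.722% of all genes were called lower. This was Wdr5, a histone methyltransferase subunit that also contacts MYC on chromatin. It measured 7.24, 7.08 and 7.17 with oligo 1, 7.72, 7.42 and 7.43 with oligo 2, 7.91, 7.85 and 7.63 with sirEGFP, and 7.60, 7.62 and 7.68 in Mock. Oligo 1 was below every other array, and oligo 2 overlapped both controls. The change was -0.63 with oligo 1 (limma adjusted p = 0.0112), -0.27 with oligo 2 (0.343) and -0.45 with both (0.0385), all against sirEGFP, and -0.47 with oligo 1 against Mock (0.0520). Leaving out 1 array ended the call with both oligos in 9 of 12 fits, with adjusted p between 0.0327 and 0.211, and the oligo 1 call in 1, without sirEGFP array 2 (0.0684). Ep300, an acetyltransferase, and Trrap, a scaffold of acetyltransferase complexes, differed by 0.46 and 0.36 with both oligos (limma adjusted p = 0.0668 and 0.176). With both oligos against both controls, Ep300 was called higher and Wdr5 lower, where 4.93% of all genes passed. These calls were lost in 6 and 4 of 12 fits without 1 array. Actl6a, named after its values were seen, was called lower with oligo 1 against Mock, where 2.75% of all genes passed.

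The corepressors through which MXD and MNT act, 16 of 18 listed genes, gave 0 calls with both oligos against sirEGFP and a median of 0.0055. That value averages medians of -0.071 with oligo 1 (6 above 0, 10 below) and 0.13 with oligo 2 (14 above, 2 below). Between the oligos the median was 0.23 (oligo 2 minus oligo 1), against -0.030 over all genes. These medians were not tested. With both oligos against sirEGFP, Sap30, a SIN3 complex subunit, differed by -0.58 (limma adjusted p = 0.0583). Sap130 differed by 0.54 (0.240) and the deacetylase gene Hdac1 by 0.31 (0.192). Sap30 was called lower with both oligos against both controls, where 1.87% of all genes were, a call lost in 11 of 12 fits without 1 array. The genes for MYC protein turnover and phosphorylation, 19 of 22 listed, also gave 0 calls with both oligos against sirEGFP, with a median of 0.0998. Their medians against sirEGFP were -0.021 with oligo 1 (9 above 0, 10 below) and 0.19 with oligo 2 (12 above, 7 below). Between the oligos the median was 0.26 (15 above, 4 below), also not tested. Usp28, a deubiquitinase that stabilises MYC, fell by 0.52 with oligo 1 against sirEGFP (limma adjusted p = 0.0267), but its oligo 1 change against Mock was -0.076 (0.872) and sirEGFP stood above Mock by 0.44 (0.668). The oligo 1 call against sirEGFP was lost without sirEGFP array 2 or 3 or oligo 1 array 1 or 3 (0.0603 to 0.106), and with both oligos against sirEGFP the Usp28 change was -0.33 (0.120). Aurka and Gsk3a, kinase genes, differed by -0.37 and 0.36 with both oligos against sirEGFP (0.220 and 0.225). Aurka was called lower with oligo 1 against Mock, where 2.75% of all genes passed. It was also called lower with both oligos against both controls, where 1.87% were called lower. These calls held in all 12 fits without 1 array (limma adjusted p 0.0014 to 0.017 and 0.0026 to 0.023). Aurka averaged 8.66 with oligo 1, 9.16 with oligo 2, 9.28 with sirEGFP and 9.73 in Mock, and neither oligo passed against sirEGFP. With oligo 2 against Mock, 2 of the 19 genes were called higher, where 2.93% of all genes were. They were, named after their values were seen, Usp7 and Gsk3b. Usp7 was also called higher with oligo 2 than with oligo 1, where 3.67% of all genes passed. Its calls were lost in 3 and 4 of 12 fits without 1 array. MYC protein itself was not measured here.

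The 9 partners of MGA in PRC1.6 gave 0 calls with both oligos against sirEGFP, with a median of 0.023. That value averages medians of -0.078 with oligo 1 (4 above 0, 5 below) and 0.077 with oligo 2 (8 above, 1 below). Between the oligos the median was 0.20 (7 above, 2 below), against -0.030 over all genes. These medians were not tested. With oligo 2 against sirEGFP 1 partner rose, where 1.52% of all genes were called higher. It was Rnf2, the ubiquitin ligase gene also called Ring1b. Rnf2 measured 7.86, 7.89 and 7.84 with oligo 1, 8.36, 8.59 and 8.46 with oligo 2, 7.90, 7.90 and 8.02 with sirEGFP, and 7.69, 7.71 and 7.66 in Mock. All 3 oligo 2 arrays lay above the other 9. Oligo 2 was higher by 0.78 ± 0.10 against Mock (SE, limma adjusted p = 0.00097), by 0.61 ± 0.10 against oligo 1 (0.00428) and by 0.53 ± 0.10 against sirEGFP (0.0137). The first 2 calls held in all 12 fits that left out 1 array, but the call between the oligos was lost without oligo 1 arrays 1 and 2 and sirEGFP array 1 together (0.0775). The call against sirEGFP was lost without sirEGFP array 2 (0.0710) and without oligo 2 array 2 (0.0668) or 3 (0.0556). Cbx3 and Pcgf6, which encode other subunits, differed by -0.24 and -0.18 with both oligos (limma adjusted p = 0.455 and 0.510).

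Genes described elsewhere as activated by MYC include ribosome assembly, nucleotide synthesis and cell cycle genes. With both oligos against sirEGFP, 71 of 74 listed genes were measured, 0 were called higher and 1 lower, where 0.722% of all genes were called lower. Their median change was -0.056, against 0.0077 over all genes, with 25 changes above 0 and 46 below and 9 genes at an unadjusted p under 0.05, against 13.2% of all genes. The control comparison, sirEGFP against Mock, gave the same split of 25 and 46 and a median of -0.060, with 0 calls and 7 genes at an unadjusted p under 0.05, against 6.25% of all genes. Against Mock the split was 21 and 50 with oligo 1 (median -0.14, 1 called lower). With oligo 2 against Mock it was 26 and 45 (median -0.11, 1 called higher and 4 lower). In these 2 comparisons the median over all genes was 0.043 and 0.0082. Of all genes, 2.75% and 4.25% were called in either direction. With oligo 2 the 4.25% was 848 of 19938 genes, of which 585 (2.93% of all genes) were called higher and the rest lower. The gene that fell was Tfrc, the transferrin receptor, at 10.65, 11.07 and 10.95 with oligo 1, 9.43, 9.85 and 9.61 with oligo 2, 10.61, 11.24 and 11.06 with sirEGFP, and 10.44, 10.90 and 10.82 in Mock. Oligo 2 was below all other arrays, and oligo 1 overlapped both controls. Tfrc fell by 1.34 with oligo 2 against sirEGFP (limma adjusted p = 0.000986), a call kept in all 12 fits without 1 array, and its change with oligo 1 was -0.076 (0.925). The call with both oligos (-0.71, limma adjusted p = 0.0328) was lost in 6 of the 12, those without sirEGFP array 2 or 3, oligo 1 array 1 or 3, or oligo 2 array 1 or 3 (0.0504 to 0.231).

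**Figure D3:**
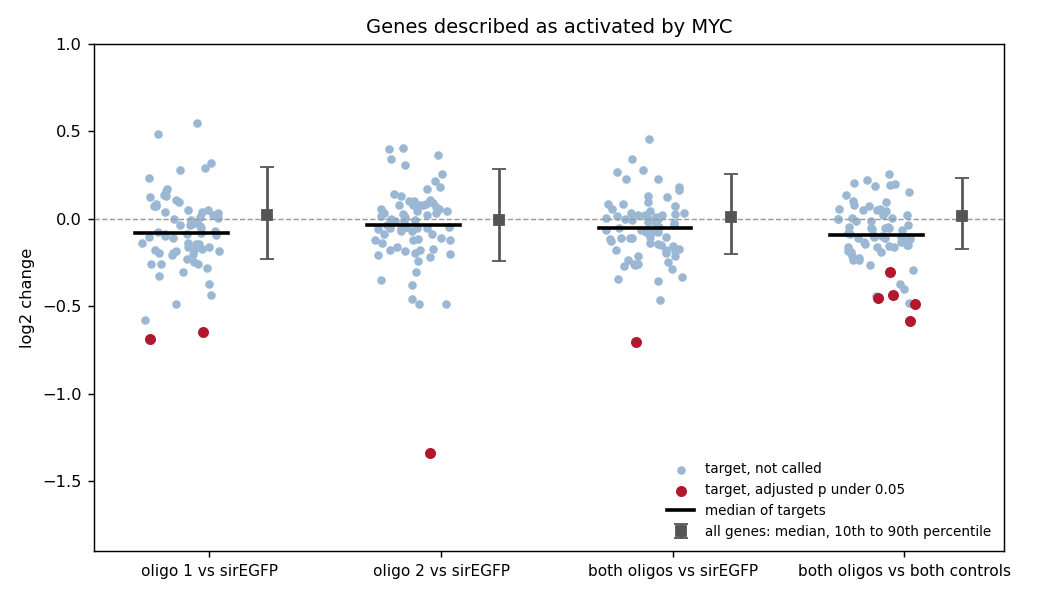
Log2 changes of 71 measured genes described as activated by MYC (points, red for a limma adjusted p under 0.05, black line for their median) in 4 comparisons, beside the median and the 10th to 90th percentile of all 19938 genes (grey). The medians of the targets run from -0.033 to -0.095. The grey ranges describe single genes, so they cannot show whether a median of 71 genes is unusual.

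With oligo 1 against sirEGFP 2 of the 71 genes fell, where 1.43% of all genes were called lower. Mcm4, named after its values were seen and known as a helicase subunit of DNA replication, fell by 0.65 with oligo 1 against sirEGFP (limma adjusted p = 0.00767) and its change with oligo 2 was 0.077 (0.871). Against Mock the Mcm4 changes were -0.38 with oligo 1 (0.111) and 0.34 with oligo 2 (0.123), and sirEGFP stood above Mock by 0.27 (0.781). The difference between the oligos was 0.72 for Mcm4 (oligo 2 minus oligo 1, limma adjusted p = 0.00245). The calls of Mcm4 with oligo 1 against sirEGFP and between the oligos held in all 12 fits without 1 array and were lost without oligo 1 arrays 1 and 2 and sirEGFP array 1 together (0.179 and 0.102). Plk4, the centriole duplication kinase, fell by 0.69 with oligo 1 (limma adjusted p = 0.0185), a call lost without sirEGFP array 2 or 3 or oligo 1 array 1 or 3 (0.0569 to 0.109), and Mphosph10, a ribosome assembly gene, differed by -0.36 with both oligos (0.126). Over the 6 knockdown and 6 control arrays 5 of the 71 fell and 0 rose, with 22 changes above 0 and 49 below, where 1.87% of all genes were called lower. They were Tfrc, Plk4 and, named after their values were seen, the ribosome assembly genes Mrto4 (-0.44), Nip7 (-0.30) and Nop16 (-0.45), each of which lost its call in 8 or 9 of 12 fits without 1 array. The E-box was present in the promoter windows of 18 of the 62 MYC-activated genes with a window (29.0%).

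Of 12 measured genes described as repressed by MYC, 13 being listed, 0 passed with both oligos against sirEGFP, and their median was 0.0013. Pdgfrb, a growth factor receptor gene that is also in the fibroblast marker list, differed by 1.09 with both oligos (limma adjusted p = 0.0760) and rose by 1.75 with oligo 2 (0.0126). Against Mock the oligo 2 change of Pdgfrb was 0.91 (0.179), with sirEGFP at -0.84 against Mock (0.775). The oligo 2 call against sirEGFP was lost without sirEGFP array 2 or 3 or oligo 2 array 1 (0.0699 to 0.0734). Cdkn1b, a cell cycle inhibitor gene, and Thbs1, an angiogenesis inhibitor gene, differed by -0.26 and -0.43 with both oligos (limma adjusted p = 0.343 and 0.367). Thbs1 was called lower with oligo 1 against Mock, where 2.75% of all genes passed. Between the oligos, Pdgfrb and, named after its values were seen, Nfyb were called higher with oligo 2, where 3.67% of all genes passed. The Pdgfrb call was lost in 9 of 12 fits without 1 array. The Pol I machinery, 17 of 21 listed genes with Ubtf among them, gave 0 calls with both oligos against sirEGFP and a median of -0.13. The Pol I subunit genes Twistnb and Polr1d differed by -0.40 and -0.21 (limma adjusted p = 0.230 and 0.333), and 2 of the 17 windows held the E-box (11.8%). With oligo 2 against Mock, Ubtf was called lower and Ttf1 higher, where 4.25% of all genes passed. Znrd1 was called higher with oligo 2 than with oligo 1, where 3.67% passed. Ttf1 and Znrd1 were named after their values were seen. The comparisons of each oligo, of both and of sirEGFP against Mock share the sirEGFP arrays, so their values are not independent of each other.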

How the data were processed

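The deposited values are on a log2 scale, read from the values themselves, with 35512 probe sets measured on each of 12 arrays. RNA was amplified from 100 ng, per the labels' protocols. The submitters' processing notes name limma. How probe sets were summarised, corrected for background or normalized is not given in the sources used here, and values were used as deposited. Signal over background could not be judged, and having 3 arrays a group limits the precision.

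The platform annotation gave 21789 probe sets 1 symbol, 1621 several and 12102 none. Through Entrez identifiers, 21698 matched RefSeq (GRCm38.p6) and 91 kept their annotated symbol. A gene with several probe sets (999 genes) was represented by the brightest, leaving 19938 genes. All were fitted together by lmFit and eBayes of limma 3.58.1 (R 4.3.3), two-sided, with 4 group means and 8 residual degrees of freedom. Adjustment was by Benjamini-Hochberg over all genes, and calls needed an adjusted p under 0.05. The fit was tested on simulated data with independent noise on every array. Those data lack the axis that the arrays here share within groups, so that test does not cover it.

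The members, gene lists and alternatives were chosen with earlier results of these data known. From each list, up to 3 genes with the smallest p with both oligos against sirEGFP are named. For Myc and for the member with the smallest F-test p, the 3 genes with the highest correlation are named. Predicted genes were passed over, and genes named outside the rule are marked as such. Alternatives were centring on array medians, quantile normalization, a filter on dim genes, the mean of a gene's probe sets, a fit over every probe set, eBayes with trend, array weights, only the groups compared, the replicate block and leaving out each array. Leaving out oligo 1 arrays 1 and 2 with sirEGFP array 1 was added after seeing the data, since they had the extreme scores on the axis within groups.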

Additional observations from a re-analysis of the deposited data

Results flagged for a closer look

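The difference between oligo 2 and oligo 1 in Mga was 0.58 ± 0.16 (SE, 95% interval 0.24 to 0.93). It is listed here since every oligo 2 array lay above and every oligo 1 array below every sirEGFP array, by almost nothing at the nearest pair (8.7678 with oligo 2 and 8.7672 with sirEGFP). Neither oligo differed from sirEGFP at an adjusted p of 0.05 (0.574 with oligo 2 and 0.419 with oligo 1). The difference between the oligos was tested and had a limma adjusted p of 0.0639, short of 0.05. It passed with array weights (0.50, limma adjusted p = 0.0075), where 3164 of 19938 genes were called. It also passed with the replicate number as a block (0.58, limma adjusted p = 0.0229), where 1094 genes were called. Without oligo 1 arrays 1 and 2 and sirEGFP array 1, which lie at the ends of the axis within groups, it was 0.44 (adjusted p = 0.514).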

How the results depend on the processing

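Of 1584 member values under 22 alternatives, 1466 kept their sign and their side of the threshold, 102 changed sign with neither value called, 5 were called only in the alternative and 11 lost a call. No called value changed sign. The number of members called with oligo 1 against sirEGFP was 2 with array weights, where 3814 of 19938 genes were called. With oligo 2 against Mock it was 0 after median centring, quantile normalization and the fit over every probe set, and 0 to 1 without 1 array. With oligo 2 against oligo 1 it was 2 with array weights and 1 with the replicate block, where 3164 and 1094 genes were called. The groups share the replicate numbers, and the check made did not settle whether the numbers pair the arrays. Deviations from the group means correlated above 0.1 in 12 of 18 same-numbered pairs (-0.24 to 0.55). Of 12 arrays, 9 correlated best with their own number, a hint of pairing from the data. The main fit made no use of the numbers, so it would ignore such a pairing. Over all genes, calls with both oligos against sirEGFP numbered 385, and 789 with the replicate block, 1949 with array weights, 123 in the fit over every probe set, 236 with only the groups compared, and 108 and 116 without sirEGFP array 2 or 3. Changes smaller than 0.41 in a member could not be called with both oligos against sirEGFP, and signal over background is unknown. The cause of these shifts was not tested.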
